A study of Danio rerio with 7 samples.

Results

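De novo purine synthesis builds the purine ring on a ribose phosphate and ends at IMP, from which cells make AMP and GMP. The 9 genes described here were taken by name: *ppat*, *gart*, *pfas*, *paics*, *adsl* and *atic*, whose enzymes lead from PRPP to IMP, and *impdh1b*, *impdh2* and *gmps*, whose enzymes lead from IMP to GMP. All 9 were found among the 20402 genes of the sorted-cell table and among the 20141 genes of the single-cell table.

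Purines have several uses in pigment tumors. Dividing cells need them for DNA and RNA, and iridophores, the reflective pigment cells of fish, store purine crystals that are largely guanine. In zebrafish, mutations in *gart* and *paics* are known to disturb pigmentation, and *pnp4a*, a purine nucleoside phosphorylase of the salvage pathway, is a common iridophore marker.

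Melanomas were raised by TEAZ, the electroporation of plasmids into the skin of adult zebrafish. All fish were *casper* (*mitfa*-/-;*mpv17*-/-) carrying *mitfa*:BRAFV600E and *p53*-/-, so that the background itself lacks most pigment cells, and the plasmids restored *mitfa* with tdTomato (MinicoopR-tdT) and supplied *mitfa*:Cas9 with guides against *ptena* and *ptenb*. The sgDGAT1a tumors (3 libraries) also received a guide against *dgat1a*, an enzyme of triglyceride synthesis, and the sgNT tumors (3 libraries) a non-targeting guide. The *mitfa* promoter drives Cas9, so only cells that took up the plasmids and use this promoter can be edited, and such tumors are mosaics of edited and unedited cells. These 6 libraries were made from sorted tdTomato+ cells. The single-cell library pooled tumors and adjacent tissue of 6 zebrafish with no *dgat1a* guide, and gave 3968 cells that the deposited annotation places in 5 melanoma states (melanocytic, stressed, proliferative, invasive and inflammatory, 2678 cells) and the tumor microenvironment (TME, 1290 cells). Cells of 1 pooled library are not replicates, so differences between states carry no test. The study sorted out doublets by flow cytometry before encapsulation, and no doublet caller was run here, so doublets that passed the sort remain in the values.

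The single-cell values were UMI counts that the authors had corrected to a common depth with SCTransform, called corrected counts here. Levels are means over all cells of a state. The log2 ratio of a gene in a state compares the gene's part of all corrected counts of that state with its part in the pool of the other 4 melanoma states. Shares of cells above 0 were taken only from the 3467 cells with at least 2000 raw UMIs, because the correction also fills in shallow cells, and are given with 95% intervals (exact, Clopper-Pearson) for counting error alone. Median raw depth in these cells was 15310.5 UMIs in the proliferative state, 12269.5 in the melanocytic, 10567 in the stressed, 8876 in the inflammatory and 8214 in the invasive state, and 7102 in the TME. Most cell types can make purines, so no cell type could stand for free RNA alone. The TME had the lowest mean of 7 members and the invasive state the lowest mean of *ppat* and *gart*.

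The inflammatory state had the highest mean of 7 of the 9 members, and the proliferative state that of *atic* and *impdh2*. Against the other 4 melanoma states, 8 of 9 members were higher in the inflammatory state, where 32.6% of the 11776 genes with at least 50 corrected counts were higher, and 7 of 9 were past a log2 ratio of 1, as were 6.86% of these genes. Their median log2 ratio was 1.74, beside -0.30 over all of these genes. In the proliferative state 4 of 9 members were higher (57.2% of all genes) and 1 was past a log2 ratio of 1 (8.59% of all genes), with a median of -0.11 beside 0.11 over all genes. The stressed state had 1 higher member (55.6% of all genes), the melanocytic state none (34.3%) and the invasive state none (52.9%), where 7 of 9 lay below a log2 ratio of -1, as did 11.6% of all genes. Summed over the 9 members, a cell averaged 9.49 corrected counts in the inflammatory state, 3.55 in the proliferative, 2.05 and 2.00 in melanocytic and stressed cells, 1.18 in invasive cells and 0.603 in the TME. The inflammatory state thus stood above every other state in the sum, of which *paics* alone made up 47.0% there. The part of raw depth in these sums was not tested.

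**Figure D1:**
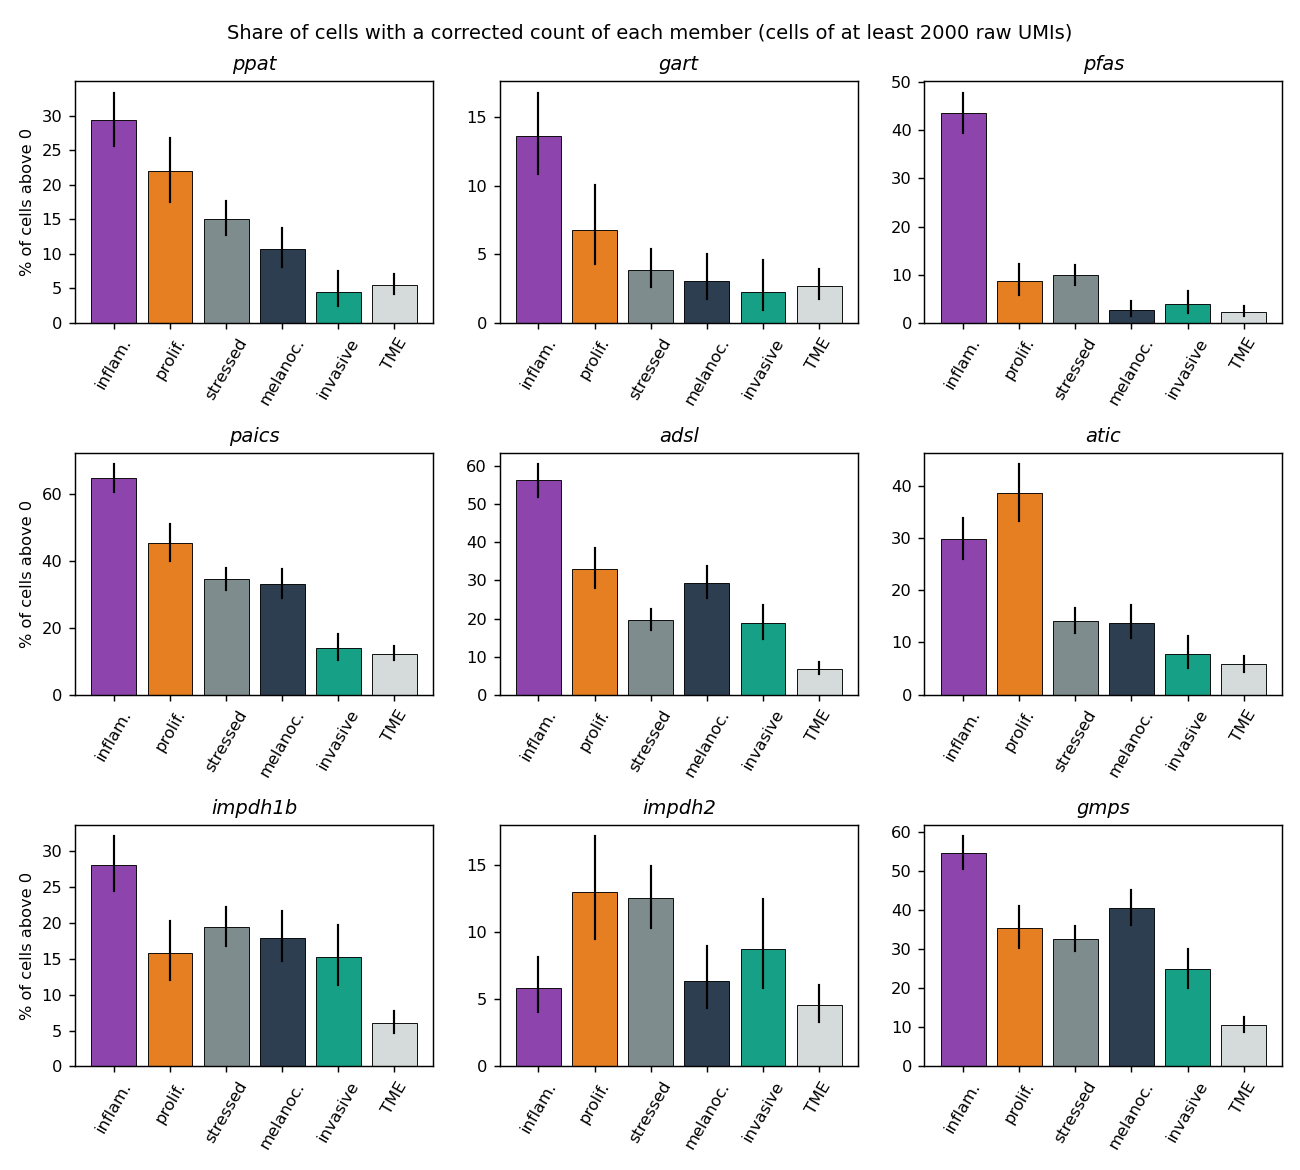
Share of cells (percent, vertical axis) with a corrected count above 0 for each of the 9 members, in 5 melanoma states and the TME, among cells of at least 2000 raw UMIs, with exact 95% binomial intervals as black lines. The inflammatory bar is the tallest for 7 members, reaching 64.8% for paics, while the proliferative bar is the tallest for atic and for impdh2.

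Of the enzymes up to IMP, *paics* had the most corrected counts, and its enzyme carries out a pair of adjoining ring-building steps. It averaged 4.47 corrected counts per cell in the inflammatory state, 1.14 in the proliferative, 0.660 in melanocytic cells, 0.519 in stressed cells and 0.225 in invasive cells, and 0.152 in the TME. The log2 ratio was 2.88 in the inflammatory state (4.47 against 0.610 in the other 4 states) and -0.42 in the proliferative state (1.14 against 1.49). Both more cells and more transcript per cell entered this difference: *paics* was above 0 in 356 of 549 inflammatory cells (64.8%, 60.7 to 68.8), 147 of 324 proliferative cells (45.4%, 39.9 to 51.0) and 118 of 965 TME cells (12.2%, 10.2 to 14.5). A cell above 0 held 7.15 corrected counts on average in the inflammatory state, 2.56 in the proliferative and 1.52 in the stressed state. The stressed and melanocytic shares, 34.5% and 33.1%, had overlapping intervals, as did the invasive share of 13.9% and that of the TME. The gene took 47.0% of the members' sum in the inflammatory state and between 19.1% and 32.2% in the other melanoma states.

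*pfas*, whose enzyme uses glutamine to add a nitrogen to the growing ring, had the largest log2 ratio of the members in the inflammatory state, at 3.14. Its mean was 0.679 in the inflammatory state, 0.113 in the stressed, 0.105 in the proliferative, 0.0450 in the invasive and 0.0294 in the melanocytic state, and 0.0217 in the TME. It was above 0 in 43.5% of inflammatory cells (39.3 to 47.8), against 9.84% of stressed (7.91 to 12.1) and 8.64% of proliferative cells (5.82 to 12.2). The inflammatory interval lay above those of all other states, and the stressed and proliferative intervals overlap. Such intervals hold counting error alone and not the spread between the pooled fish. In the proliferative state its log2 ratio was -1.10, the lowest of the members there, with the inflammatory cells part of the comparison.

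*adsl*, which acts once on the way to IMP and again on the way to AMP, averaged 1.33 in the inflammatory state, 0.426 in the proliferative, 0.340 in melanocytic cells, 0.224 in stressed cells and 0.189 in invasive cells, and 0.0589 in the TME. The log2 ratio was 2.24 in the inflammatory and -0.32 in the proliferative state. It was above 0 in 56.3% of inflammatory cells (52.0 to 60.5), 33.0% of proliferative cells (27.9 to 38.4) and 29.4% of melanocytic cells (25.4 to 33.7), and the last of these intervals overlap.

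*ppat*, whose enzyme commits PRPP to the pathway, and *gart*, whose product carries several of its activities on one chain, had smaller differences between the inflammatory and proliferative states. *ppat* averaged 0.426 in the inflammatory, 0.270 in the proliferative, 0.168 in the stressed, 0.102 in the melanocytic and 0.0450 in the invasive state (log2 ratio 1.55 in the inflammatory, 0.42 in the proliferative). *gart* was sparse, with 170 corrected counts over all melanoma cells. It was above 0 in 13.7% of inflammatory cells (10.9 to 16.8), against 6.79% of proliferative cells (4.30 to 10.1), and in between 2.26% and 3.84% of the cells of the other states and the TME, whose intervals overlap (log2 ratio 2.03 in the inflammatory, 0.06 in the proliferative).

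*atic*, which closes the ring to give IMP, departed from this order when all cells were counted. It averaged 0.541 in the proliferative and 0.472 in the inflammatory state, and between 0.0841 and 0.161 in the other melanoma states. The log2 ratio was 1.24 in the proliferative and 1.21 in the inflammatory state, so both states stood above the rest to a like degree. The share of cells above 0 was 38.6% in the proliferative (33.3 to 44.1) and 29.9% in the inflammatory state (26.1 to 33.9), and these intervals overlap slightly, at raw depths that differ as given above.

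The branch from IMP to GMP was split between its paralogs. IMP dehydrogenase, the enzyme that commits IMP to guanine nucleotides, is encoded by several genes in zebrafish. *impdh1b* averaged 0.376 in the inflammatory, 0.224 in the stressed, 0.195 in the proliferative, 0.192 in the invasive and 0.178 in the melanocytic state (log2 ratio 0.91 in the inflammatory state), and was above 0 in 28.1% of inflammatory cells (24.3 to 32.0) and in between 15.2% and 19.3% of cells of the other melanoma states, whose intervals overlap. *impdh2* ran the other way. It averaged 0.0603 in the inflammatory, 0.147 in the proliferative, 0.134 in the stressed, 0.0871 in the invasive and 0.0535 in the melanocytic state. Log2 ratios were 0.73 in the stressed, 0.70 in the proliferative, -0.12 in the invasive, -0.79 in the inflammatory and -0.96 in the melanocytic state. *impdh2* was thus the one member higher in the stressed state. It was above 0 in 5.83% of inflammatory cells (4.02 to 8.13), an interval that overlaps that of the 4.56% of TME cells (3.33 to 6.07), against 13.0% of proliferative cells, where the interval reached 17.1. The share of stressed cells was 12.5% (10.3 to 14.9), an interval that overlaps the proliferative one. The quotient of *impdh1b* over *impdh2* corrected counts was 6.23 in the inflammatory, 3.32 in the melanocytic, 2.21 in the invasive, 1.68 in the stressed and 1.33 in the proliferative state. *impdh2* was sparse, with 258 corrected counts over all melanoma cells, so the quotient of each state rests on few counts. Corrected counts are not per length, so this quotient compares states and not the 2 transcripts.

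*gmps*, which aminates XMP to GMP, followed the enzymes before IMP. It averaged 1.53 in the inflammatory, 0.664 in the proliferative, 0.494 in melanocytic cells, 0.427 in stressed cells and 0.291 in invasive cells, and 0.118 in the TME. The log2 ratio was 1.74 in the inflammatory and -0.11 in the proliferative state. It was above 0 in 54.6% of inflammatory cells (50.4 to 58.9), against 35.5% of proliferative cells (30.3 to 41.0) and 40.5% of melanocytic cells (36.1 to 45.0).

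Because the inflammatory cells enter the comparison of the proliferative state, both states were also set against the melanocytic, stressed and invasive states alone, an alternative chosen after seeing the data. Then 8 of 9 members were higher in the proliferative state (56.8% of all genes), 3 of them past a log2 ratio of 1 (9.21% of all genes), with a median of 0.71 beside 0.10 over all genes. *atic* led at 1.89, followed by *paics* at 1.12 and *ppat* at 1.11, and *pfas* turned to 0.51. In the inflammatory state 8 of 9 members were higher (35.5% of all genes), 7 past a log2 ratio of 1 (7.40% of all genes), with a median of 1.86 beside -0.24 over all genes. The exceptions were *impdh1b* in the proliferative state (-0.08) and *impdh2* in the inflammatory state (-0.69), and ratios were larger in the inflammatory state for 7 of 9 members.

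**Figure D2:**
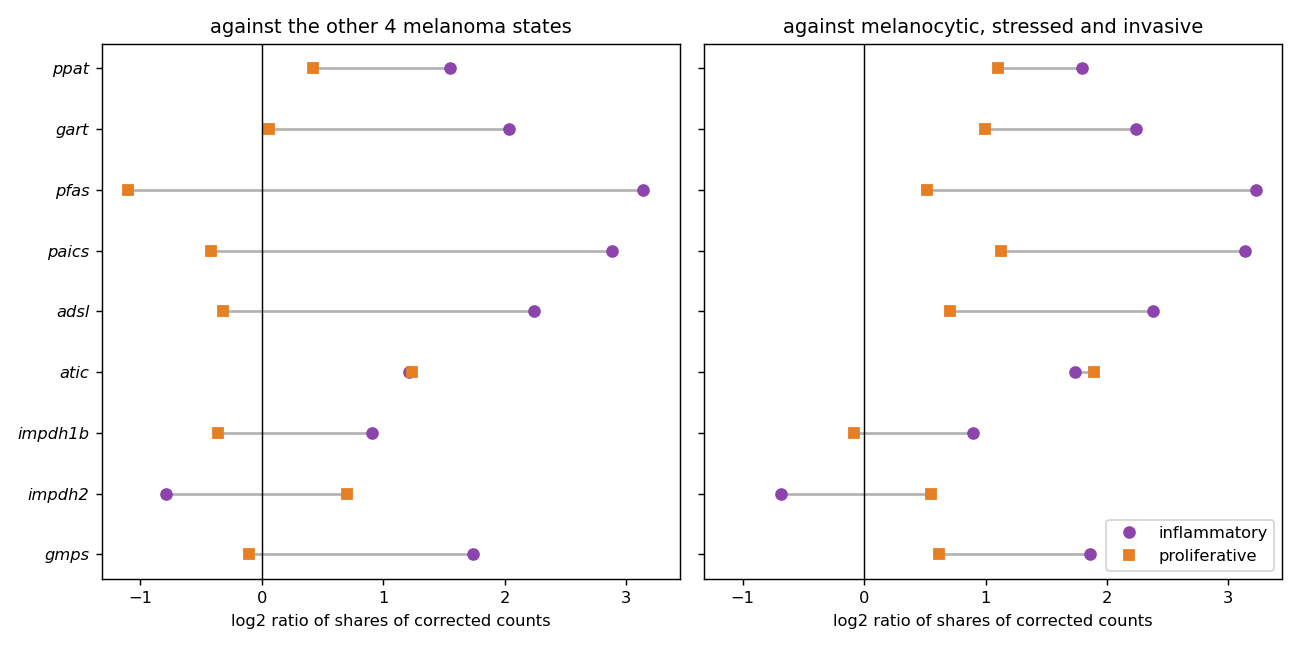
Log2 ratio of each member's share of corrected counts (horizontal axis) in the inflammatory (circles) and proliferative (squares) states, against the other 4 melanoma states (left) and against the melanocytic, stressed and invasive states alone (right). The inflammatory circle lies right of the proliferative square for 7 members in both panels, with the reverse for atic and impdh2, and 4 proliferative squares lie above 0 in the left panel and 8 in the right.

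Set directly against each other, the inflammatory state exceeded the proliferative state by a log2 ratio of 2.71 for *pfas*, 2.01 for *paics*, 1.67 for *adsl*, 1.25 for *gart*, 1.24 for *gmps*, 0.98 for *impdh1b* and 0.69 for *ppat*. It was below the proliferative state by -0.16 for *atic* and -1.24 for *impdh2*. The members therefore did not shift as a block between these states.

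The labels of both states were checked against marker lists. The annotation's inflammatory state carried the iridophore markers: 10 of 10 were higher than in the other 4 states, with a summed mean of 125 corrected counts, against 8.96 in the proliferative and 5.87 in the melanocytic state. *defbl1* and *apoda.1* led this list in level, at 55.7 and 44.3. Of the melanocytic sum, *pnp4a* made up 4.32. Against the melanocytic, stressed and invasive states alone, 7 of 10 iridophore markers were past a log2 ratio of 1 in the proliferative state (9.21% of all genes), with a median of 2.28. In the inflammatory state 9 of 10 were (7.40% of all genes), with a median of 5.83. Macrophage markers summed to 1.88 in the inflammatory state, against 68.8 in the TME. In the proliferative state all 22 S phase genes and all 9 G2/M genes were higher, and 70.9% of its cells had a G2/M marker, against 7.07% of inflammatory cells. With all cells bearing a G2/M marker left out, *paics* averaged 4.29 in the inflammatory state (log2 ratio 3.07). Few inflammatory cells bore such a marker, and S phase cells without one stayed in, so this filter could hardly move that mean. The part of cycling cells in it was not tested. In the remaining 97 proliferative cells *paics* averaged 0.959 and *pfas* 0.0412, the latter resting on few counts. The members' log2 ratios in these proliferative cells ran from -2.28 for *pfas* to 1.43 for *impdh2*. *atic* averaged 0.402 in them and 0.443 in the inflammatory cells without a G2/M marker, so its order between these states turned. Its log2 ratios were then 0.91 in the proliferative and 1.59 in the inflammatory state.

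Members also varied among the cells of a state. The median number of members above 0 was 3 in inflammatory cells, 2 in proliferative cells, 1 in melanocytic, stressed and invasive cells and 0 in TME cells. At least 3 members were above 0 in 59.9% of inflammatory cells (55.7 to 64.1), 38.0% of proliferative cells (32.7 to 43.5), 23.5% of melanocytic cells, 22.3% of stressed cells, 9.03% of invasive cells and 2.69% of TME cells. The inflammatory and proliferative intervals did not overlap, and both lay above those of the other states. In the inflammatory state, the 58 cells highest in *paics*, of 580 in all, held 47.9% of its corrected counts there.

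Within the inflammatory state, the 356 cells with *paics* above 0 averaged 0.865 for *pfas*, 1.82 for *adsl* and 2.07 for *gmps*, against 0.389, 0.601 and 0.715 in the 193 cells with *paics* at 0. The cells with *paics* also had more iridophore marker counts (153 against 83.6 per cell), more S phase counts (3.60 against 0.870) and more raw UMIs (median 10402 against 7062). *impdh2* averaged 0.0702 in cells with and 0.0518 in cells without *paics*. Within the proliferative state, cells with *paics* above 0 had a mean iridophore sum of 15.6, against 3.74 in cells with *paics* at 0, at near-equal raw depth (median 15811 against 14882) and with S phase sums of 23.9 against 19.6. The part of depth in these differences was not tested.

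Lists of other branches of nucleotide metabolism did not all follow the members in these states. Of all genes, 32.6% were higher in the inflammatory state and 57.2% in the proliferative state, and some list counts lay near these shares. Serine and one-carbon enzymes, which supply the formyl groups of the purine ring, were higher for 8 of 11 genes in the inflammatory state (median log2 ratio 1.27), led among genes with at least 200 corrected counts by *phgdh* (0.345 against 0.0682, log2 ratio 2.36), the mitochondrial folate enzyme *mthfd2* (1.25 against 0.252, 2.32) and *mthfd1b* (0.326 against 0.117, 1.49). In the proliferative state 6 of 11 were higher (median 0.31), led by *dhfr*, dihydrofolate reductase, at 3.04, *shmt1* at 1.94 and *psat1* at 1.26, and *dhfr* was the lowest of the list in the inflammatory state at -1.67 (-0.63 against the melanocytic, stressed and invasive states alone). These genes follow the members only in part.

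Pyrimidine synthesis differed from the purine members. In the inflammatory state 0 of 11 genes were higher (median -0.92), from *uck2a* at -0.55 to *tyms*, thymidylate synthase, at -1.86, whereas in the proliferative state 10 of 11 were higher (median 0.89), led by *dut* at 4.28, *tyms* at 4.24 and *umps* at 1.38 among genes with at least 200 corrected counts. The ribonucleotide reductase genes *rrm1* and *rrm2* had log2 ratios of -1.46 and -2.37 in the inflammatory state and 3.38 and 4.94 in the proliferative state. *rrm2b* was at -0.31 in the inflammatory and -0.35 in the proliferative state. The S phase list had a median of 2.88 in the proliferative and -1.18 in the inflammatory state. Proliferative cells are part of the comparison of the inflammatory state, which bears on these lists. Against the melanocytic, stressed and invasive states alone, the inflammatory state had log2 ratios of 0.11 for *tyms*, 0.54 for *dut*, -0.15 for *rrm1* and 0.21 for *rrm2*. There 3 of 11 pyrimidine genes (median -0.58) and 9 of 22 S phase genes (median -0.09) were higher, beside 35.5% of all genes (median -0.24). In that comparison 7 of 9 members were past a log2 ratio of 1 in the inflammatory state, and in the proliferative state *tyms*, *dut*, *rrm1* and *rrm2* had larger ratios than any of the 9 members.

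In purine salvage, which recycles bases and nucleosides, 3 of 11 genes were higher in the inflammatory state (median -0.75), where 32.6% of all genes were higher. These were *pnp4a* (6.98 in that state, log2 ratio 2.14), the adenosine kinase gene *adka* (1.85 against 0.557, 1.74) and *hprt1l* (0.559 against 0.173, 1.70). *dck*, deoxycytidine kinase, was at -1.99 there, but at -0.05 against the melanocytic, stressed and invasive states alone, where *pnp5a* was at -2.09. In the proliferative state *dck* was highest at 4.23, followed by *prtfdc1* at 0.66 and *aprt* at 0.52, while *pnp4a* was lowest at -1.95. *pnp4a* was also high in the melanocytic state, at 4.32 corrected counts, where no member was high. Of the 6 purine breakdown genes, 3 were higher in the inflammatory state. *ada* (log2 ratio 1.69) and *ada2a* (1.25) were among these, and *gda*, guanine deaminase, which removes guanine, was lower there (0.0241 against 0.168, log2 ratio -2.74). As a list, PRPP and pentose phosphate genes did not rise with the members. In the inflammatory state 2 of 9 were higher (median -0.65). In the proliferative state 7 of 9 were higher (median 0.50, led by *prps1b* at 0.97), as were 57.2% of all genes. *prps1a* was among the 2 and had its highest mean in the inflammatory state (0.843 against 0.606, log2 ratio 0.49), where *prps1b* was at -0.65. These transcript levels do not measure PRPP supply itself.

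**Figure D3:**
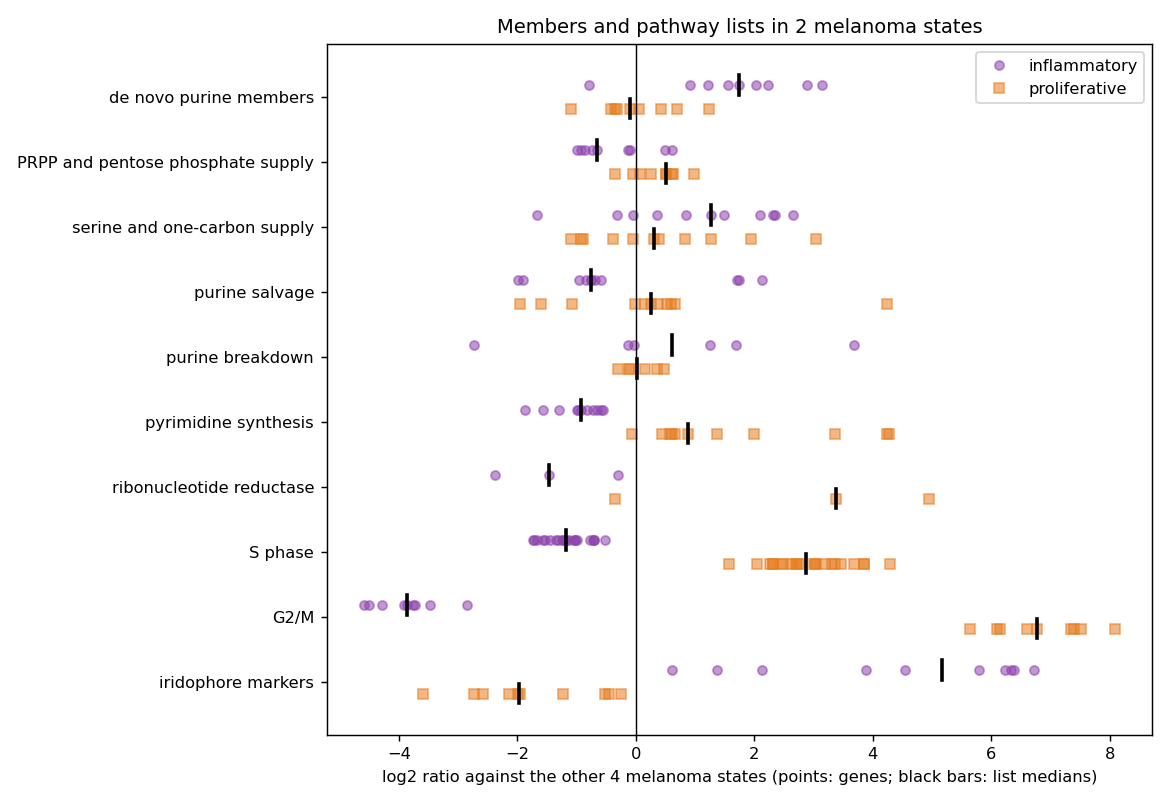
Log2 ratio against the other 4 melanoma states (horizontal axis) of each gene with at least 50 corrected counts, by list, in the inflammatory (circles) and proliferative (squares) states, with black bars at list medians. De novo purine members and one-carbon genes have positive medians in the inflammatory state (1.74 and 1.27). Pyrimidine, ribonucleotide reductase and S phase genes lie below 0 there, in a comparison that holds the proliferative cells. Against the other 3 states, 9 of 22 S phase genes lie above 0, as do 35.5% of all genes.

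The genes whose means over the 6 annotated groups were most like *paics*, among 9148 candidates with at least 200 corrected counts, were *fhl3a*, *sh3glb1b*, *nhsl1a*, *si:dkey-4e7.3* and *nme4* (Pearson r of log2 means at most 0.987). For the summed enzymes from *ppat* to *atic* they were *si:dkey-4e7.3*, *fhl3a*, *sh3glb1b*, *fpgs*, which encodes folylpolyglutamate synthase, and *rorab* (0.988 to 0.973). Among the members, the likeness to *paics* was 0.974 for *adsl*, 0.973 for *gmps*, 0.960 for *gart*, 0.941 for *ppat*, 0.898 for *pfas*, 0.896 for *atic*, 0.832 for *impdh1b* and 0.13 for *impdh2*. These describe 6 points that share 1 library.

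The sorted-cell libraries asked how the members differed between sgDGAT1a and sgNT tumors. Values were Salmon estimates that had been normalized with DESeq2, and their depth is unknown. limma was run on log2(normalized count + 1) over 16969 genes, with Benjamini-Hochberg adjusted p-values. Called genes had an adjusted p under 0.05 together with a log2 fold change past 1 in either direction. The labels do not say that libraries came from separate fish, so the p-values measure the spread between these libraries only. Libraries 1 and 2 of each group were more alike (r = 0.963 and 0.962 across genes) than either was to library 3 (0.900 to 0.903 within sgDGAT1a and 0.887 to 0.888 within sgNT). sgNT 3 was nearly as like the sgDGAT1a libraries (0.885, 0.874 and 0.866) as its own group. sgNT 1 and sgNT 2 were at 0.799 to 0.821 to the sgDGAT1a libraries. *dgat1a*, the targeted gene, was at 216, 231 and 240 normalized counts in sgDGAT1a libraries, against 799, 747 and 405 in sgNT libraries (log2 fold change -1.44, adjusted p = 0.0265 from limma). The call of *dgat1a* was lost without sgDGAT1a 1 (adjusted p = 0.0974), sgDGAT1a 2 (0.101), sgNT 1 (0.114) or sgNT 2 (0.103), and over all 15 alternatives its adjusted p lay between 0.0019 and 0.287. In RNA from sorted bulk cells, fewer cells of a type and less RNA per cell cannot be told apart, here and for all values that follow.

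1 of the 9 members was called, *impdh1b*, which was lower in sgDGAT1a, where 12% of all genes were called in either direction, 3.31% lower and 8.7% higher. Groups did not overlap for 3 members, *impdh1b* and *gmps* (lower) and *adsl* (higher), where 36.9% of all genes did not overlap (15.9% lower and 21.1% higher). The median log2 fold change of the members was -0.38, beside 0.02 over all genes, and 6 of 9 were below 0, as were 49% of all genes. The count of members called does not stand apart from the share of all genes called.

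*impdh1b* was at 979, 837 and 1038 normalized counts in sgDGAT1a libraries, against 2190, 2113 and 2965 in sgNT libraries. All 3 sgDGAT1a libraries lay well below the lowest sgNT library. The log2 fold change was -1.34 ± 0.22 (SE, 95% interval -1.84 to -0.83, adjusted p = 0.0123 from limma, n = 3 libraries each), a quotient of means of 0.393. The call was lost without sgDGAT1a 1 (adjusted p = 0.0585), without sgDGAT1a 2 (0.0697) and without sgNT 1 (0.0519), with the fold change between -1.43 and -1.18 over all libraries left out in turn. *impdh1a*, its closest relative among the genes listed, fell likewise to 149, 139 and 130 in sgDGAT1a libraries, against 468, 489 and 310 in sgNT libraries (log2 fold change -1.57, adjusted p = 0.0189 from limma).

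*impdh2* was at 963, 733 and 842 normalized counts in sgDGAT1a libraries, against 615, 587 and 853 in sgNT libraries, and the groups overlapped (log2 fold change 0.32, 95% interval -0.24 to 0.87, adjusted p = 0.410 from limma). The quotient of *impdh1b* over *impdh2* within a library, chosen after the values were seen, was 1.02, 1.14 and 1.23 in sgDGAT1a libraries and 3.56, 3.60 and 3.48 in sgNT libraries. It averaged 1.13 ± 0.108 in sgDGAT1a and 3.55 ± 0.0631 in sgNT (SD, n = 3 each, difference of log2 quotients -1.65, two-sided exact permutation p = 0.1, the smallest that 3 against 3 can give). Library 3, which stood apart for other members, lay near the other libraries of its group in this quotient.

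*gmps* was at 2700, 2601 and 3175 normalized counts in sgDGAT1a libraries, against 5230, 3871 and 5012 in sgNT libraries. Each sgDGAT1a library lay below each sgNT library, but neither threshold was passed (log2 fold change -0.73 ± 0.21, 95% interval -1.21 to -0.25, adjusted p = 0.0547 from limma).

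*adsl* was at 1448, 1326 and 3191 normalized counts in sgDGAT1a libraries, against 717, 616 and 1085 in sgNT libraries. The lowest sgDGAT1a library lay above the highest sgNT library, with library 3 highest in each group. The log2 fold change of 1.22 ± 0.38 had a 95% interval of 0.36 to 2.09 and an adjusted p of 0.0662 from limma, so that it was not called. It was called without sgNT 3 (log2 fold change 1.46, adjusted p = 0.0253). *adsl* was thus the one member whose libraries all lay higher in sgDGAT1a, as did those of 21.1% of all genes.

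*paics* was at 2968, 2791 and 11897 normalized counts in sgDGAT1a libraries, against 2651, 2661 and 6196 in sgNT libraries. Libraries 1 and 2 of both groups were nearly level, and library 3 was 4.13 times their mean in sgDGAT1a and 2.33 times their mean in sgNT. The log2 fold change was 0.39 (95% interval -0.94 to 1.73, adjusted p = 0.684 from limma) and changed sign, to -0.29, without sgDGAT1a 3. *pnp4a* was also highest in library 3 of each group, at 4035, 4338 and 10877 in sgDGAT1a, against 2324, 2367 and 7939 in sgNT (log2 fold change 0.71, adjusted p = 0.416 from limma). Melanophore markers summed to 514118 in sgDGAT1a 3, against 113156 to 114876 in the other sgDGAT1a libraries and 94571 to 133660 in sgNT libraries, and iridophore markers to 29838, 34085 and 34664 in sgDGAT1a, against 17667, 18215 and 26032 in sgNT. The part of these cells in the *paics* values was not tested.

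The remaining enzymes before IMP overlapped between the groups. *ppat* was at 1214, 1021 and 1974 normalized counts in sgDGAT1a libraries, against 1401, 1425 and 2756 in sgNT libraries (log2 fold change -0.39, 95% interval -1.19 to 0.41), again with library 3 highest in each group. *pfas* was at 1250, 1358 and 1115 in sgDGAT1a libraries, against 1320, 1038 and 3307 in sgNT libraries. Here sgNT 3 alone was high, and the log2 fold change of -0.42 (-1.34 to 0.50) became 0.08 without it. *gart* was at 787, 613 and 992 in sgDGAT1a libraries, against 1086, 974 and 1005 in sgNT libraries (-0.38, -0.93 to 0.17). *atic* was at 2064, 1690 and 2488 in sgDGAT1a libraries, against 2487, 2454 and 1867 in sgNT libraries (-0.13, -0.66 to 0.40). The adjusted p of these 4 lay between 0.311 and 0.733, and the intervals reach down to -1.34 on the log2 scale.

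**Figure D4:**
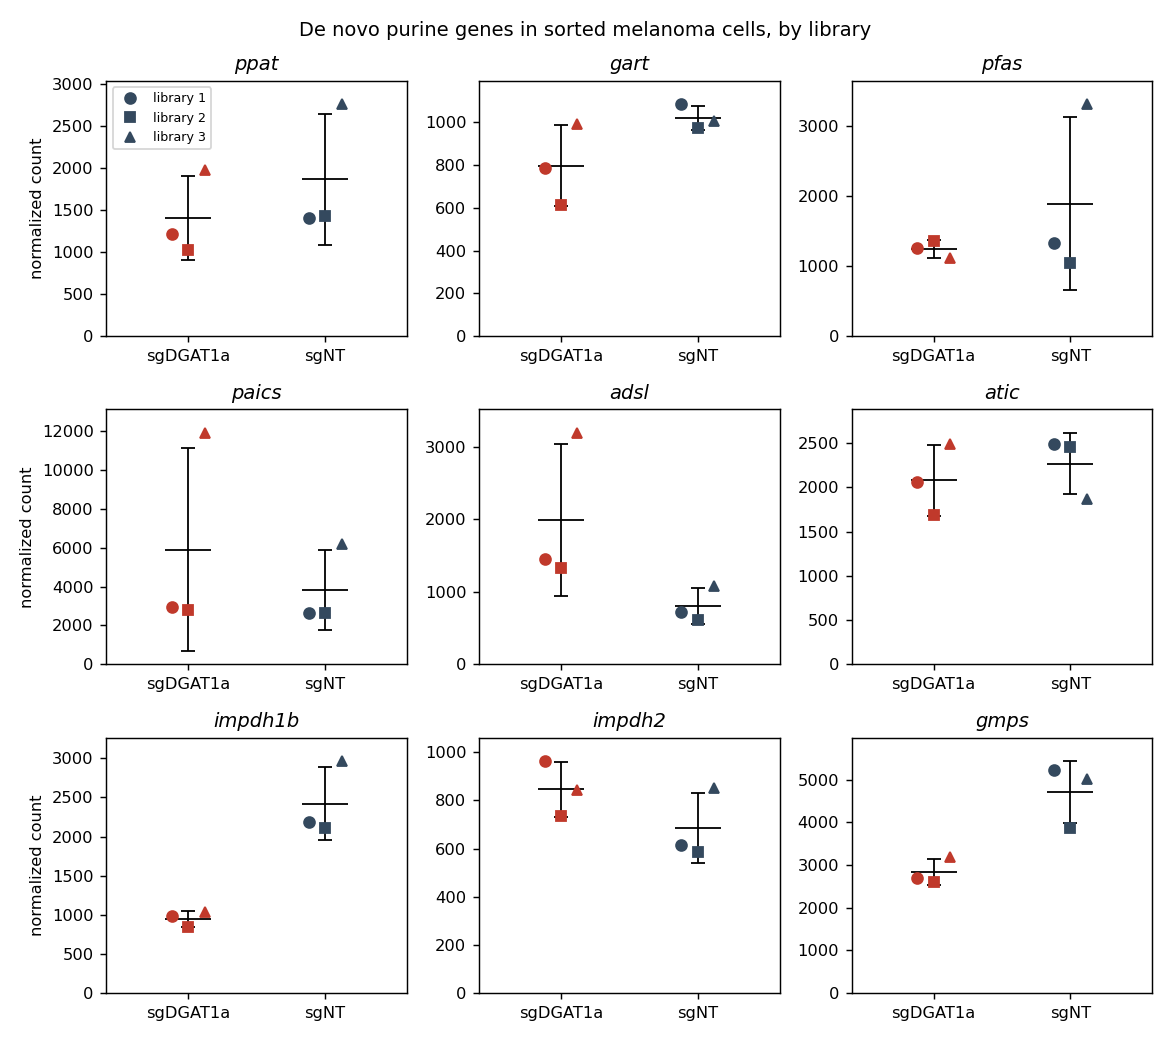
Normalized counts (vertical axis, from 0) of the 9 members in each sorted-cell library, sgDGAT1a left and sgNT right, with circles, squares and triangles for libraries 1, 2 and 3, and horizontal bars and whiskers for the mean and SD (n = 3). The groups are separate for adsl, impdh1b and gmps, as they are for 36.9% of all genes. Library 3 is far above the other libraries for paics in both groups (11897 and 6196).

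**Figure D5:**
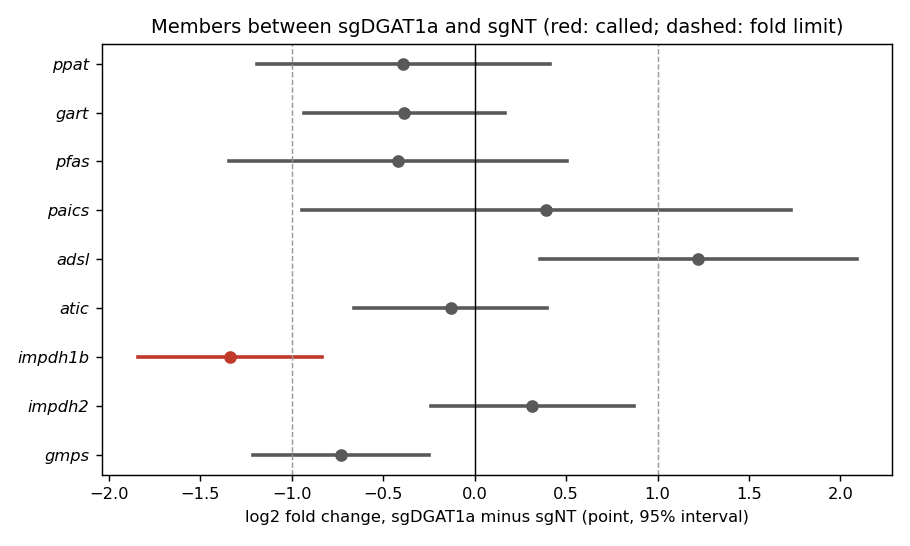
Log2 fold change, sgDGAT1a minus sgNT, of the 9 members (points) with 95% intervals from limma (lines), the called member in red and dashed lines at the fold limit of 1. The impdh1b interval lies below 0 at -1.84 to -0.83, and the paics interval spans both directions at -0.94 to 1.73.

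Around the members, 6 of 61 genes of nucleotide metabolism were called (9.84%), beside 12% of all genes. Of the other enzymes from IMP to AMP and GMP, *impdh1a* was called lower and *adss1*, an adenylosuccinate synthase gene that acts just before *adsl* on the way to AMP, was called higher (638, 631 and 890 in sgDGAT1a libraries, against 283, 150 and 147 in sgNT libraries, log2 fold change 1.94, adjusted p = 0.0143 from limma), of 4 tested. *prtfdc1*, related to the salvage enzyme HPRT, was called lower (log2 fold change -1.19, adjusted p = 0.0191 from limma) of 12 salvage genes, *mthfd1l* higher (1.80, 0.0306) of 12 one-carbon genes, *ctps1a*, a CTP synthase gene, lower (-1.19, 0.0314) of 11 pyrimidine genes and *ampd1*, the muscle AMP deaminase, higher (2.36, 0.0447) of 11 breakdown genes. None of 9 PRPP supply genes, 2 ribonucleotide reductase genes and 22 S phase genes was called, and 1 of 9 G2/M genes was, *mki67* (-1.57, 0.0212). Log2 fold changes were nonetheless below 0 for 9 of 9 G2/M genes (median -0.98) and 17 of 22 S phase genes (-0.27). The same held for 2 of 2 ribonucleotide reductase genes tested, *rrm1* and *rrm2b* (-0.74), and 8 of 9 PRPP supply genes (-0.22), beside 49% of all genes. *rrm2* was not among the genes tested. The paper reports that cell cycle pathways, negatively enriched in sgDGAT1a tumors, made up most of its top pathways. The S phase sum was 34431, 30103 and 36635 in sgDGAT1a libraries, against 61559, 61522 and 28650 in sgNT libraries, so sgNT 3 was the lowest of all 6.

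Markers of some other cells moved with the groups. Fibroblast markers were called higher for 5 of 5 genes (sums of 91682 to 123711 in sgDGAT1a libraries, against 19283 to 23074 in sgNT libraries). So were 6 of 7 keratinocyte markers (107191 to 153554 against 8245 to 52876) and 4 of 4 skeletal muscle markers (6947 to 20426 against 289 to 1407). Whether *ampd1*, *adss1* or *adsl* rose with the muscle cells was not tested. Called higher were also 3 of 6 xanthophore, 2 of 5 erythrocyte, 2 of 4 endothelial, 2 of 5 neutrophil and 2 of 6 T cell markers. Iridophore markers had 2 called higher and 1 lower of 10 tested, and melanophore markers 1 higher of 9. Of all genes, 8.7% were called higher. Neural crest markers were below 0 for 4 of 5 genes (median -0.91), 3 without overlap, and 1 was called higher. Their sums were 38249 to 40779 in sgDGAT1a libraries, against 57306 to 110777 in sgNT libraries. Macrophage markers did not move one way, with 1 called higher and 1 lower of 8 and overlapping sums (75376 to 94308 in sgDGAT1a libraries, against 79633 to 93716 in sgNT libraries). In the single cells, where the TME held most of the fibroblast and keratinocyte counts, *impdh1b*, *gmps* and *adsl* were all lower in the TME (0.0643, 0.118 and 0.0589) than in any melanoma state, whereas *mthfd1l* was highest in the TME at 0.198. Skeletal muscle markers summed to only 0.551 in the single-cell TME, so these TME values say little about muscle cells. The part of other cells in the changes of *impdh1b*, *gmps* and *adsl* was not tested.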

How the data were processed

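The members and lists were chosen with earlier results of these data known. For the single cells, the authors aligned reads with Cell Ranger 6.0.2 and used Seurat 4.0.2, with GRCz11 the build in the submitters' processing notes. The deposited corrected counts, made with SCTransform, are a score and not a count of molecules, and they smooth differences in depth. Raw UMI counts and the percent of mitochondrial UMIs per cell came from the deposited annotation. The pseudocount was 0.5 per sum, and states came from the deposited annotation.

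For the sorted cells, the deposited values are a signal, Salmon 1.4.0 estimated counts that the authors normalized with DESeq2 1.30.1. The paper does not state how they were scaled. Of values above 0, 0.225% lay within 0.001 of a whole number, so reads were not recovered and depth is unknown. Genes with a mean of at least 10 were tested with limma 3.58.1 (trended prior variance, pseudocount 1, R 4.3.3), and 280 lines repeating an identifier were left out. On simulated data 79.5% of 200 genes shifted by 3 on the log2 scale were recovered among 16969, with 5 unchanged genes called. The shifted genes were drawn from genes of higher level only. Changes as small as those of the members were not simulated, so this recovery does not apply to them.

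Named beside the members were, per list, up to 3 called genes, up to 3 highest ratios and the lowest among genes with at least 200 corrected counts, the 5 genes most like *paics* or the summed enzymes, and markers a result turned on, of which 1 gene is not reported here. Alternatives were other pseudocounts, filters, scalings, priors, weights and totals, thinning to 5000 corrected counts, cell filters, the replicate block and each library left out. Python 3.11.15 with numpy 2.4.6, scipy 1.17.1, pandas 2.3.3 and matplotlib 3.10.9 was used.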

Additional observations from a re-analysis of the deposited data

How the results depend on the processing

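Of the 2038 genes called, 1477 were higher and 561 lower in sgDGAT1a, and 1220 and 793 under quantile normalization, which shifted the median of all genes to -0.12. Counts of genes called ran from 108 to 4225 and of members called from 0 to 2 with single libraries left out, with 108 genes without sgDGAT1a 2 and 4225 without sgNT 3. Under quantile normalization 2 members were called, with *adsl* added (log2 fold change 1.26, adjusted p = 0.0475 from limma). With libraries 1 and 2 of each group averaged, limma called 0 genes and 0 members (2533 genes at an unadjusted p under 0.05), and *impdh1b* had a log2 fold change of -1.38 and an adjusted p of 0.176. The replicate block left 482 genes and 1 member called. Over all genes, same-numbered libraries did not deviate together (r = -0.0743, -0.0515 and -0.144). Library 3 was high in both groups for *paics*, at 4.13 (sgDGAT1a) and 2.33 (sgNT) times the mean of libraries 1 and 2. The same held for *adsl* (2.30 and 1.63) and *ppat* (1.77 and 1.95), but not for *pfas* (0.855 and 2.80). So few libraries cannot show whether the numbers pair them, and the labels do not say. With single libraries left out, log2 fold changes ran from -0.76 to 0.0798 for *pfas* (sign turned without sgNT 3), from -0.29 to 0.80 for *paics* (without sgDGAT1a 3) and from -0.27 to 0.00999 for *atic* (without sgDGAT1a 2), and *atic* was at 0.00869 with libraries 1 and 2 averaged, none called. The cause was not tested. In the single cells the count of higher members moved in the proliferative state, to 8 against the melanocytic, stressed and invasive states alone, where *pfas* turned to 0.51 (and to 5 when thinned to 5000 corrected counts, with *gmps* at 0.02 and *impdh2* at 1.04), and in the invasive state, to 1 with a pseudocount of 5 per sum. Unknown depth in the sorted cells and 1 single-cell library limit these values.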
